A study of Mus musculus with 6 samples.

Results

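The contractile genes of smooth muscle were followed across the cells of the mouse sciatic nerve in newborns (P1, postnatal day 1) and in adults (P60, postnatal day 60). The set held 10 of the 41605 genes in the count tables, chosen by their symbols: Acta2, Actg2, Myh11, Myl9, Mylk, Tagln, Cnn1, Smtn, Des and Pln. The count tables of all 6 libraries, 3 per age, list all 10, and Pln had 0 UMIs in the whole of P1 replicate 2. The mice were P0Cre-/+ : ReYFP Tg/+ : βAct-DsRed Tg/+ on a C57bl/6J background, at both ages. The Cre is active in the Schwann cell lineage, so eYFP marks Schwann cells, whereas DsRed is driven by a ubiquitous promoter. Each suspension pooled nerves of male and female mice in equal parts, DsRed-positive cells were sorted, and at P1 the DsRed-eYFP double-positive cells were selected against in the sort. Each suspension was run on the 10x Genomics Chromium, which counts captured RNA molecules per cell by unique molecular identifiers (UMIs).

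Force in smooth muscle comes from filaments of actin sliding past filaments of smooth muscle myosin. Calcium entering the cell binds calmodulin and activates myosin light chain kinase, which phosphorylates the regulatory light chain, and calponin, transgelin and smoothelin bind the actin filaments. In a nerve, smooth muscle cells encircle the arterioles and veins of the epineurium, pericytes lie on the capillaries of the endoneurium, and the perineurium, a layered sheath of flattened cells, wraps each fascicle.

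The 2 actins of the set are Acta2, vascular smooth muscle α-actin (chr19:34241090-34255590, minus strand), and Actg2, enteric smooth muscle γ-actin (chr6:83512905-83536265, minus strand). Myh11 (chr16:14194535-14291372, minus strand) encodes the smooth muscle myosin heavy chain, Myl9 (chr2:156775420-156781658, plus strand) a regulatory light chain, and Mylk (chr16:34745210-35002420, plus strand) myosin light chain kinase. The actin-binding proteins are transgelin, encoded by Tagln (chr9:45929619-45936058, minus strand), calponin 1, encoded by Cnn1 (chr9:22099216-22109630, plus strand), and smoothelin, encoded by Smtn (chr11:3517523-3540612, minus strand). Des (chr1:75360329-75368579, plus strand) encodes desmin, an intermediate filament protein of muscle, and Pln (chr10:53337667-53345987, plus strand) encodes phospholamban, an inhibitor of the calcium pump of the sarcoplasmic reticulum. Positions are those of the protein-coding genes in GENCODE M21 on GRCm38. Genes on the opposite strand overlap Tagln (Pcsk7 and Gm48529), Pln (Cep85l and Gm47644), Smtn (Gm11946 and Gm11947), Des (Gm15179) and Mylk (1700119H24Rik, E130310I04Rik and Gm21691), and whether counting used the strand is not given in the sources used here. Coding sequences of the actins are nearly alike, and how reads that fall there were counted among the actin genes was not examined.

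Many smooth muscle promoters hold a CArG box, the site bound by serum response factor with myocardin. RefSeq promoter sequences on GRCm38.p6 were matched for 7 of the 10 genes (Acta2, Myl9, Mylk, Cnn1, Smtn, Des and Pln), and the 250 bases before the start were searched for the CArG box, which reads the same way on both strands. A full CArG box was found in 482 of all 32851 promoters (1.47%) and in 1 of the 7, Myl9. Allowing 1 base outside the pattern, a match was found in 6117 of all promoters (18.6%) and in 2 of the 7, Acta2 and Myl9. These promoters are shown with that of Pln, the gene with the largest change with age in smooth muscle cells, to set boxed promoters beside a promoter with no match in this window. Capitals mark the matches, which start 84 and 34 bases before the Acta2 start, each with 1 base off, and 161 (a full box) and 99 (1 base off) bases before the Myl9 start. The windows are chr19:34255374-34255623 on the minus strand, chr2:156775214-156775463 on the plus strand and chr10:53337436-53337685 on the plus strand. Distances count back from the end of each window, the start in the promoter entry, which differs from the GENCODE gene start. All these windows reach into the genes as placed above, and the Acta2 matches lie inside the GENCODE gene.
Acta2: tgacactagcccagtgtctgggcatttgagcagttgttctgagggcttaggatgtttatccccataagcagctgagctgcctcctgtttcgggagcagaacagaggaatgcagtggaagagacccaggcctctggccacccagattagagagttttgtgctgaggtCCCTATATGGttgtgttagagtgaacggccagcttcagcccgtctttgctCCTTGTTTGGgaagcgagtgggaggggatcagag
Myl9: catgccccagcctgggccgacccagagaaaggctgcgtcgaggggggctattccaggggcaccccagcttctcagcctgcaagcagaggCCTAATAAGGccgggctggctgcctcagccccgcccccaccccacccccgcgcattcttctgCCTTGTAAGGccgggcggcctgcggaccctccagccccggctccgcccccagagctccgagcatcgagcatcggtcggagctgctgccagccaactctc
Pln: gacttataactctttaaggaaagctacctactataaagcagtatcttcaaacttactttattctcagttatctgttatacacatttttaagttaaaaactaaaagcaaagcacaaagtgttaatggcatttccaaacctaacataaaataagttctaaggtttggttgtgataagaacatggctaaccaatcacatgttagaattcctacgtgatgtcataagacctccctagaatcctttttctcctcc

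Cells were clustered at each age with the 10 genes left out of the variable genes, and clusters were named by markers that are not among the 10. The class of smooth muscle cells held 147 cells at P1 and 554 at P60, pericytes 418 and 304, endoneurial cells 1304 and 862, perineurial cells 910 and 2417, and epineurial cells 2246 and 4544. Mural cells stand here for smooth muscle cells and pericytes together with 38 dividing mural cells at P1 that took neither name. The library labelled P60 replicate 3 stood apart: 42.4% of its smooth muscle cells had over 10% mitochondrial counts, against 13.8% and 16.4% in the other P60 libraries and 0, 3.92% and 2.08% at P1. Summed levels of the 15 smooth muscle markers used for naming were between 4828 and 5194 CPM (UMIs of a gene per 1000000 UMIs of the class) in smooth muscle cells at P1 and between 681.4 and 761.5 CPM in pericytes, and at P60 between 7525 and 10160 CPM and between 1549 and 1860 CPM. Markers of other cell types in smooth muscle cells also differed between the ages. The 6 Schwann cell markers summed to between 274.5 and 1618 CPM at P1 and between 49.7 and 84.5 CPM at P60, and the 6 fibroblast markers to between 2150 and 3657 CPM and between 1003 and 1367 CPM. The 7 epineurial markers summed to between 30.4 and 49.9 CPM at P1 and between 221.5 and 538.2 CPM at P60, and the 7 endothelial markers to between 20.2 and 34.6 CPM and between 82.3 and 157.2 CPM. In pericytes the Schwann cell markers summed to between 440.2 and 569.0 CPM at P1 and between 74.7 and 148.0 CPM at P60, and the epineurial markers to between 56.9 and 108.8 CPM and between 316.7 and 1056 CPM. The part of these markers in the age changes was not tested. Of 8 skeletal muscle markers, Myod1, Myog and Pax7 were at 0 UMIs in smooth muscle cells at both ages, and the list summed to between 26.6 and 57.6 CPM at P1 and between 10.8 and 15.1 CPM at P60. At 337 barcodes, libraries shared a barcode sequence.

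At both ages the contractile genes were concentrated in smooth muscle cells. Together they made up 3.57%, 3.34% and 3.48% of all UMIs of smooth muscle cells in the P1 libraries, and 4.26%, 4.05% and 3.84% in the P60 libraries. In pericytes the same genes made up 0.433%, 0.513% and 0.467% of UMIs at P1 and 0.779%, 0.943% and 0.902% at P60. Perineurial cells were next, at 0.0793%, 0.0707% and 0.0753% at P1 and 0.421%, 0.443% and 0.335% at P60, so that each P60 library was above each P1 library in all 3 classes.

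**Figure D1:**
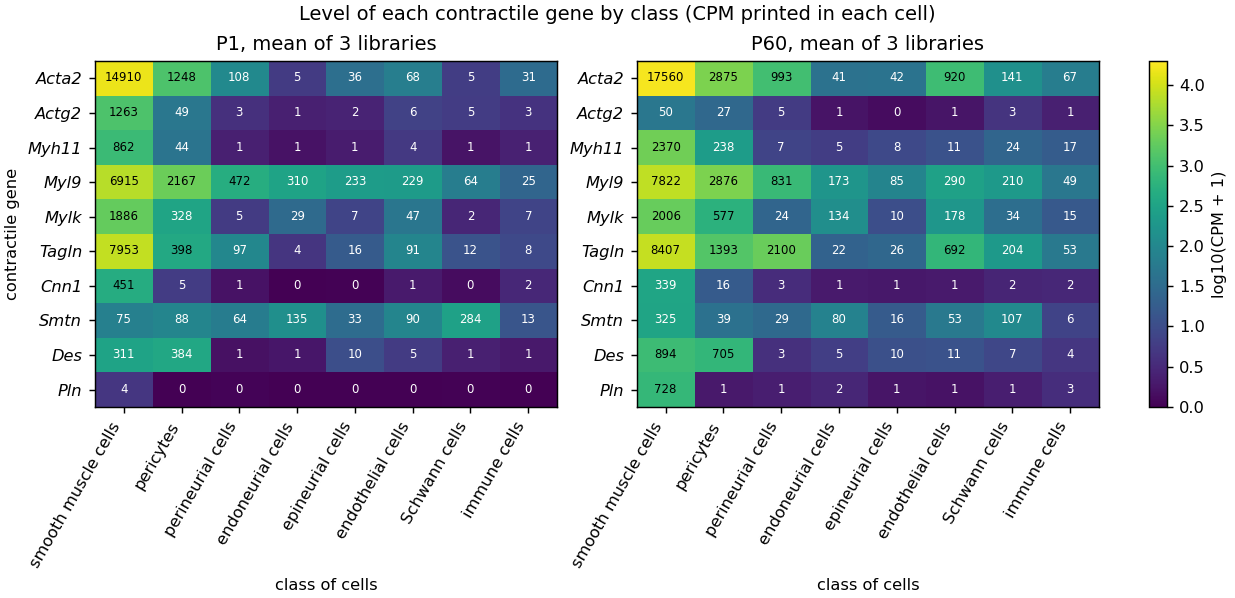
Mean level of each contractile gene (rows) in 8 classes of cells (columns) over 3 libraries at P1 (left) and P60 (right), with colour on a log10(CPM + 1) scale and the mean CPM printed in each cell. Smooth muscle cells hold the highest level of 8 of 10 genes at P1 (Pln from only 3 UMIs) and of 10 at P60, and perineurial cells at P60 reach 2100 CPM of Tagln.

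Of the 10 genes, 8 had their highest mean level in smooth muscle cells at P1, and all 10 did at P60, among 8 classes that share no cells. The exceptions at P1 were Des, highest in pericytes (mean 383.5 ± 19.1 CPM, SD, n = 3, against 310.9 ± 23.6 in smooth muscle cells), and Smtn, highest in Schwann cells (284 CPM) and next in endoneurial cells (135 CPM). The ranges of smooth muscle cells and the next class did not overlap for 7 genes at P1 and 8 at P60, whereas those of Actg2 and Des overlapped with pericytes at P60. At P1, Pln was highest in smooth muscle cells from only 3 UMIs there, and its range overlapped with the next class. Within each library, smooth muscle cells had 15.2, 10.1 and 11.5 times the Acta2 level of pericytes at P1 and 7.98, 5.49 and 5.20 times at P60. For Tagln these ratios were 23.6, 16.9 and 20.2 at P1 and 8.0, 5.98 and 5.13 at P60. For both genes the ratio in every P60 library was below that in every P1 library. For Smtn the order was the other way round, with ratios of 1.24, 0.98 and 0.507 at P1 and 7.15, 8.15 and 10.2 at P60. These levels between classes are descriptions without a test.

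Because classes differ in size, the class with the highest level was not always the main source of a gene's UMIs. At P1, smooth muscle cells held on average 81.3% of a library's Cnn1 UMIs, 72.1% of Myh11, 70.5% of Actg2, 64.7% of Tagln and 64.3% of Acta2, although they were 1.19% to 1.37% of the cells. They held 0.55% of Smtn UMIs, of which 50.6% were in Schwann cells, and pericytes held 57.0% of Des UMIs. At P60, 94.5% of Pln, 85.3% of Cnn1 and 81.9% of Myh11 UMIs were in smooth muscle cells. For Tagln and Acta2 the main source differed between the P60 libraries. Perineurial cells held 60.5%, 65.0% and 35.9% of the Tagln UMIs, and smooth muscle cells 21.2%, 14.4% and 48.7%. Without P60 replicate 3 the mean share of smooth muscle cells was 17.8% of the Tagln UMIs, against 28.1% with all libraries. For Acta2, perineurial cells held 28.0%, 36.0% and 11.5% and smooth muscle cells 49.2%, 33.2% and 71.4%.

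Between P1 and P60 the contractile genes changed in both directions in smooth muscle cells. By edgeR's quasi-likelihood test on the UMIs summed per library, 5 of the 10 genes were higher at P60 (Pln, Smtn, Des, Myh11 and Acta2), Actg2 was lower, and Myl9, Mylk, Tagln and Cnn1 did not pass the test. Of the 4709 genes tested in this class, 32.5% were called at an adjusted p under 0.05, 17.3% as higher and 15.2% as lower, and 53.1% of those were higher at P60 (41% with library sizes alone). The median log2 change was 0.36 over the 10 genes and 0.00 over all genes tested. In 5 of the 10 genes the P1 and P60 libraries did not overlap, against 45.6% of all genes tested.

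Pln was close to absent from smooth muscle cells at P1. Its UMIs numbered 1, 0 and 2 in the P1 libraries and 382, 333 and 784 in the P60 libraries, which are levels of 3.80, 0 and 7.68 CPM and of 827.6, 716.9 and 638.4 CPM. All P60 libraries were far above all P1 libraries (log2 change 7.60 ± 0.33, SE, edgeR adjusted p = 5.7e-09). The summed counts gave a ratio of 178.9, with an exact 95% interval of 61.1 to 868.5 for counting error. This interval is wider than the SE implies, since the SE was derived from the test statistic and is too small at so few P1 UMIs. Without thinning, 2 of the 147 smooth muscle cells held a Pln UMI at P1, and the mean shares over libraries were 1.39% at P1 and 72.4% at P60. With each cell thinned to 1500 UMIs, a Pln UMI was found in 0 of 147 at P1, which at that depth allows up to 2.04% of cells with a UMI and sets no limit on cells that express the gene, and in 55.3% ± 9.1 (SD, n = 3) at P60. In immune cells, which should lack the gene, 0.374% of cells had a Pln UMI at P60 at the same depth, and pericytes had 1 Pln UMI in all at P60. The median depth was 5005 UMIs per smooth muscle cell and 6818 per immune cell at P1, and 3617 and 3723 at P60.

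Actg2 moved the opposite way. Its level in smooth muscle cells was 1303, 1308 and 1179 CPM at P1 and 17.3, 56.0 and 77.4 CPM at P60. The lowest P1 library was well above the highest P60 library (log2 change -4.32 ± 0.32, edgeR adjusted p = 9.4e-07). At 1500 UMIs per cell, 45.5% ± 3.0 of smooth muscle cells held an Actg2 UMI at P1 and 3.20% ± 2.73 at P60. Acta2, the main actin of vascular smooth muscle, was at 15620, 14730 and 14380 CPM at P1 and 19730, 17870 and 15090 CPM at P60. These groups overlapped, and the call for Acta2 (log2 change 0.39 ± 0.12, edgeR adjusted p = 0.028) was lost with library sizes alone (0.23, adjusted p = 0.29), when any P1 library was left out (0.34 to 0.42, adjusted p = 0.08 to 0.13) and without P60 replicate 1 (0.37, adjusted p = 0.056).

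Among the myosin genes, the heavy chain Myh11 was at 790.1, 843.7 and 952.7 CPM at P1 and at 1867, 2125 and 3117 CPM at P60. Every P60 library was above every P1 library (log2 change 1.65 ± 0.21, edgeR adjusted p = 6.6e-05). The regulatory light chain Myl9 was at 7381, 6552 and 6811 CPM at P1 and 9201, 8598 and 5665 CPM at P60, with overlap, and did not pass the test (log2 change 0.32 ± 0.14, edgeR adjusted p = 0.1). It passed without P60 replicate 3 (0.49, adjusted p = 2.0e-04) and in cells under 10% mitochondrial counts (0.36, adjusted p = 0.018). The kinase Mylk, at 1991, 1804 and 1863 CPM at P1 and 1854, 1877 and 2287 CPM at P60, also overlapped between ages (0.27 ± 0.15, adjusted p = 0.2).

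The actin-binding proteins parted from each other. Smtn was at 98.8, 68.6 and 57.6 CPM at P1 and 316.3, 294.9 and 363.2 CPM at P60, without overlap (log2 change 2.29 ± 0.24, edgeR adjusted p = 1.2e-05). Tagln was at 7875, 7327 and 8659 CPM at P1 and 7491, 7690 and 10040 CPM at P60, with overlap (0.26 ± 0.17, adjusted p = 0.26). Cnn1 was at 372.3, 484.4 and 495.5 CPM at P1 and 344.5, 277.7 and 394.1 CPM at P60, with overlap (-0.22 ± 0.19, adjusted p = 0.41). Without P60 replicate 3, Cnn1 passed the test as lower at P60 (-0.40, adjusted p = 0.043), and in cells under 10% mitochondrial counts likewise (-0.59, adjusted p = 0.016).

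Des, the intermediate filament gene, was at 300.1, 294.7 and 338.0 CPM at P1 and 985.7, 1016 and 681.6 CPM at P60. The groups were apart (log2 change 1.67 ± 0.15, edgeR adjusted p = 4.8e-06). The changes of Pln, Actg2, Smtn, Des and Myh11 kept their direction and call under each of the 16 alternatives. With library sizes alone in place of TMM scaling, the median log2 change of all genes tested in smooth muscle cells was -0.17, and each of the 10 genes kept its sign under it. The share of smooth muscle cells with over 10% mitochondrial counts was higher in each P60 library than in each P1 library, and its part in the changes was not tested beyond the restriction to cells under that limit, in which Pln changed by 7.64, Actg2 by -5.07, Smtn by 1.74, Des by 1.74 and Myh11 by 1.29.

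**Figure D2:**
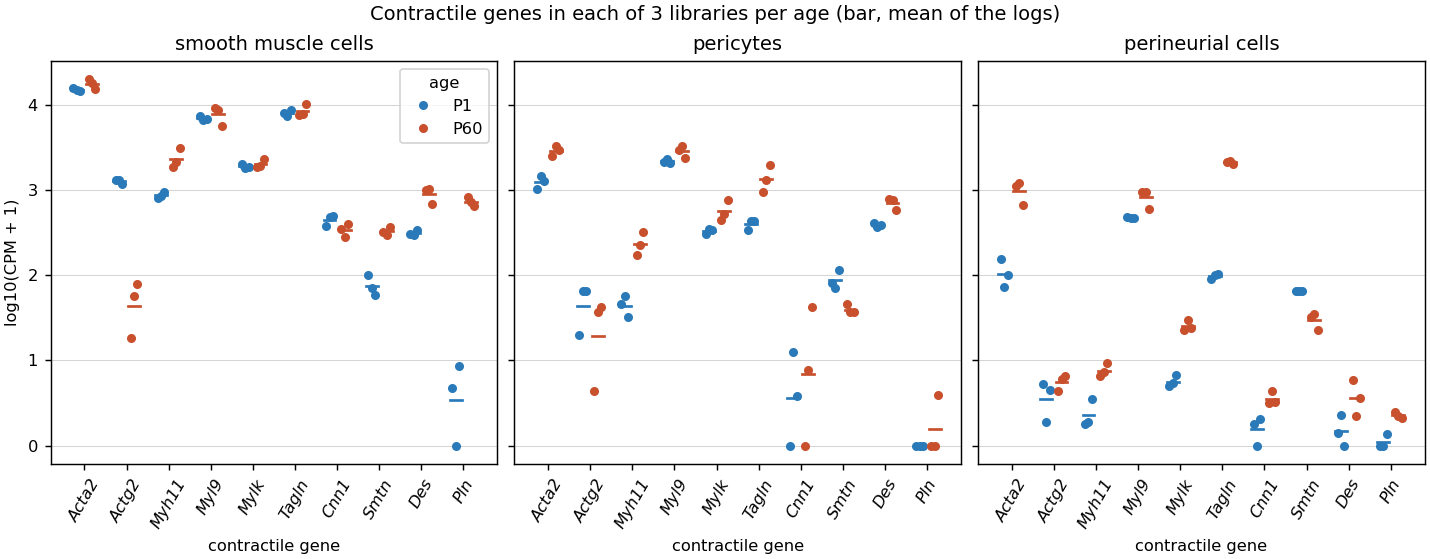
Level of each contractile gene in smooth muscle cells (left), pericytes (middle) and perineurial cells (right) on a log10(CPM + 1) scale, with a point for each of 3 libraries at P1 (blue) and P60 (orange) and a bar at the mean of the logs. In smooth muscle cells Pln goes from 0 to 7.68 CPM at P1 to at least 638.4 CPM at P60 while Actg2 goes from at least 1179 CPM to at most 77.4 CPM.

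In pericytes, the capillary mural cells, most of the contractile genes that could be tested were higher at P60 than at P1. Of the 8 genes that could be tested, 6 were higher at P60 (Myh11, Tagln, Acta2, Des, Mylk and Myl9), Smtn was lower, and Actg2 did not pass. In this class 25.9% of 6460 genes were called, 14.1% as higher and 11.8% as lower. The median log2 change was 0.82 over the 8 genes and 0.02 over all genes tested, and the libraries of both ages did not overlap for 7 of the 8, against 40.0% of all genes tested. Cnn1 and Pln were too low to be tested, with 10 and 0 UMIs at P1 and 17 and 1 at P60.

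Acta2 in pericytes was at 1030, 1462 and 1253 CPM at P1 and 2472, 3253 and 2901 CPM at P60 (log2 change 1.18 ± 0.15, edgeR adjusted p = 1.8e-05). Tagln was at 333.3, 433.3 and 429.0 CPM at P1 and 936.3, 1287 and 1957 CPM at P60 (1.79 ± 0.22, adjusted p = 1.7e-05). Both genes were higher in all P60 libraries than in all P1 libraries. Myh11 was at 44.2, 55.4 and 30.8 CPM at P1 and 170.2, 224.0 and 319.7 CPM at P60 (2.43 ± 0.27, adjusted p = 5.2e-06). Des was at 403.0, 364.7 and 382.7 CPM at P1 and 776.3, 762.4 and 577.2 CPM at P60 (0.84 ± 0.13, adjusted p = 1.5e-04). Mylk was at 300.9, 350.1 and 333.7 CPM at P1 and 446.0, 520.3 and 763.7 CPM at P60 (0.79 ± 0.18, adjusted p = 0.0044). All 3 were without overlap. Smtn, by contrast, was at 79.9, 70.0 and 113.6 CPM at P1 and 44.3, 36.2 and 35.5 CPM at P60 (-1.23 ± 0.27, adjusted p = 0.0026), again without overlap. Mean Smtn was also lower at P60 in Schwann cells, at 283.8 CPM at P1 and 107.1 CPM at P60. It was at 90.5 and 53.2 CPM in endothelial cells and at 12.7 and 6.45 CPM in immune cells, and these classes were not tested. Myl9, at 2120, 2318 and 2064 CPM at P1 and 2942, 3303 and 2383 CPM at P60, was called with a small change (0.37 ± 0.12, adjusted p = 0.035) that lost its call under 9 of 16 alternatives. Actg2 was at 18.7, 64.2 and 64.5 CPM at P1 and 3.41, 36.2 and 41.4 CPM at P60, with overlap (-0.83 ± 0.50, adjusted p = 0.25).

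**Figure D3:**
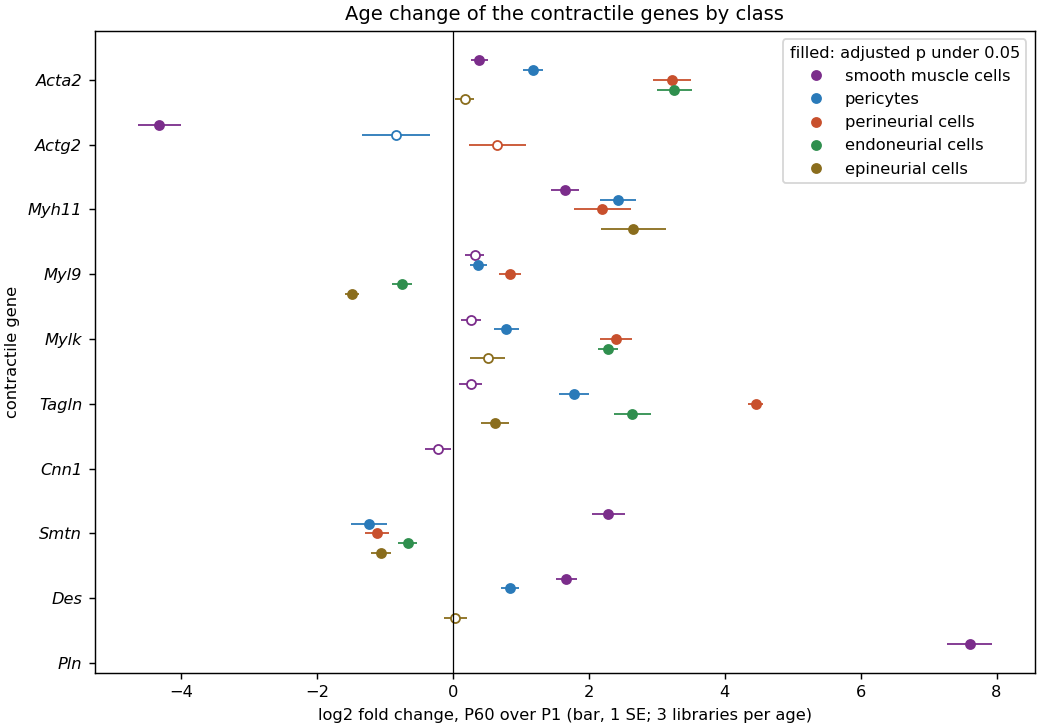
Log2 fold change of each contractile gene from P1 to P60 in smooth muscle cells, pericytes, perineurial, endoneurial and epineurial cells, with bars of 1 SE over 3 libraries per age, filled where the edgeR adjusted p is under 0.05, and absent where the gene was too low to be tested. Smtn is higher at P60 in smooth muscle cells (2.29) and lower in the other 4 classes (-0.67 to -1.23), and Tagln changes most in perineurial cells (4.45).

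The age change differed between smooth muscle cells and pericytes for 7 of the 10 genes, tested as the interaction of class and age with the library as a block, where 10.6% of 6788 genes were called. The difference was largest for Smtn, higher at P60 in smooth muscle cells and lower in pericytes (difference of log2 changes 3.54 ± 0.31, edgeR adjusted p = 1.9e-10). It was negative for Tagln, Acta2, Myh11 and Mylk, whose change was larger in pericytes, and for Actg2, whose change was more negative in smooth muscle cells (-3.53 ± 0.47, adjusted p = 8.2e-07). For Tagln it was -1.45 ± 0.13 (adjusted p = 1.9e-10), for Acta2 -0.74 ± 0.13 (5.6e-05), for Myh11 -0.75 ± 0.21 (0.013) and for Mylk -0.46 ± 0.14 (0.025). Des rose more in smooth muscle cells (0.88 ± 0.15, adjusted p = 8.1e-05). Myl9 did not differ by this test (-0.01 ± 0.11, adjusted p = 0.99), nor did Cnn1 (-1.81 ± 0.71, adjusted p = 0.11). The Pln difference could not be estimated, since pericytes held 0 Pln UMIs at P1 and 1 at P60. The differences of Myh11 and Mylk lost their calls under 4 and 7 of 15 alternatives, among them the fits without P1 replicate 3 (-0.46, adjusted p = 0.24, and -0.47, adjusted p = 0.078) and, for Mylk, without P60 replicate 3 (-0.37, adjusted p = 0.16). Of all genes called, 52.4% had a positive difference, and 26.3% with library sizes alone, under which the 7 genes kept their sign.

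In the sum of all mural cells, all 10 genes were called, 9 higher at P60 and Actg2 lower (32.9% of 8442 genes called, 17.4% higher and 15.5% lower), with a median log2 change of 1.33. The changes ran from 0.87 ± 0.13 for Myl9 and 0.96 ± 0.27 for Cnn1 to 2.76 ± 0.31 for Myh11 and 8.81 ± 0.37 for Pln. Pln had 3 UMIs at P1, for which this SE is too small. This sum mixes the changes within classes with the make-up of the class. Smooth muscle cells were 27.1%, 23.8% and 22.6% of mural cells in the P1 libraries and 58.9%, 49.0% and 76.2% in the P60 libraries (24.5% ± 2.3 and 61.4% ± 13.8, SD, n = 3 each). The groups did not overlap, and the exact two-sided permutation test gave p = 0.1, the smallest that 3 libraries against 3 allow. Without P60 replicate 3 the difference in share was 29.4 percentage points, against 36.8 with all libraries. Mural cells at P60 left out 60, 99 and 65 cells with endothelial and mural markers together, by library. At P1 there were 0 such cells, and the part of this exclusion in the share was not tested. Mylk, Tagln, Myl9 and Cnn1 were called in the mural sum and not within smooth muscle cells, and Cnn1 lost its mural call in cells under 10% mitochondrial counts (0.54, edgeR adjusted p = 0.071) and when any P1 library was left out (0.94 to 0.96, adjusted p = 0.069 to 0.076).

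The number of contractile genes found in a single cell followed the same order of classes. With cells thinned to 1500 UMIs, smooth muscle cells held on average 5.65, 5.61 and 5.58 of the 10 genes in the P1 libraries and 6.69, 6.53 and 6.52 in the P60 libraries. Pericytes held 2.43, 2.47 and 2.51 at P1 and 3.45, 3.69 and 3.73 at P60. All fibroblasts together held 0.531 ± 0.006 at P1 and 0.623 ± 0.054 at P60, and immune cells, as the background, 0.0639 ± 0.0230 and 0.241 ± 0.045. The fibroblast layers went different ways. Perineurial cells held 0.756, 0.798 and 0.740 at P1 and 1.44, 1.45 and 1.13 at P60. Epineurial cells held 0.40, 0.416 and 0.388 at P1 and 0.266, 0.244 and 0.280 at P60, and endoneurial cells 0.603, 0.596 and 0.585 and then 0.489, 0.601 and 0.568, with overlap. Exact two-sided permutation tests gave p = 0.1, the smallest possible value, for smooth muscle cells, pericytes, all fibroblasts, perineurial and epineurial cells, and p = 0.3 for endoneurial cells. Thinning left out 2 smooth muscle cells, 4 pericytes and 67 fibroblasts, all from P60 replicate 3. Without thinning, the mean numbers were 6.94 at P1 and 7.46 at P60 in smooth muscle cells and 3.74 and 4.52 in pericytes, while in all fibroblasts they were lower at P60 (1.25) than at P1 (1.44). At 1500 UMIs, 5 or more of the genes were found in 81.3%, 76.5% and 85.4% of smooth muscle cells at P1 and 99.1%, 97.5% and 97.2% at P60, and in 4.20%, 4.64% and 8.11% of pericytes at P1 and 25.0%, 35.4% and 33.0% at P60.

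**Figure D4:**
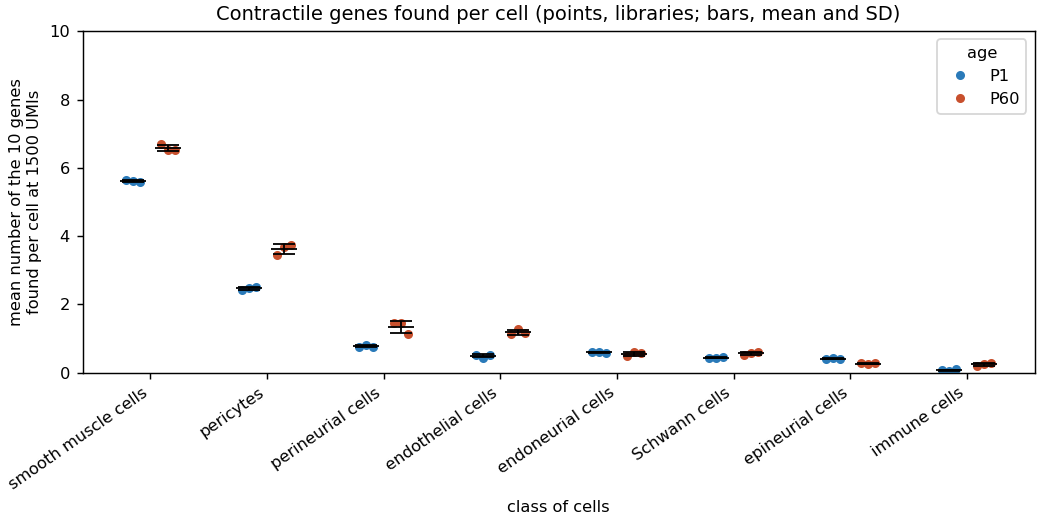
Mean number of the 10 contractile genes found per cell after thinning to 1500 UMIs, by class, with a point per library at P1 (blue) and P60 (orange) and black bars for the mean and SD over 3 libraries. Smooth muscle cells sit near 5.61 at P1 and 6.58 at P60, pericytes near 2.47 and 3.62, and immune cells at or below 0.284.

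Perineurial cells, the fibroblast-like cells of the perineurial sheath, had the highest mean levels of Tagln, Acta2 and Myl9 outside the mural classes at P60, although Acta2 overlapped with endothelial cells and was below them in P60 replicate 3 (663.1 against 740.4 CPM). Mylk, Smtn, Des and Myh11 were higher in other classes. The 8 perineurial markers summed to between 524.8 and 608.4 CPM in this class at P1 and between 5469 and 5786 CPM at P60. At P1 they were below the 7 epineurial markers (692.1 to 784.1 CPM), although above the perineurial markers of epineurial (158.0 to 168.3 CPM) and endoneurial cells (82.4 to 96.2 CPM). The P1 name rests on 3 of the 8 markers, and a change of the genes within a cell type cannot be told apart from a difference between the cells that took this name at each age. Of 7 genes tested, 5 were higher at P60 and Smtn was lower, against 54.7% of 11608 genes called in this class, 28.0% as higher and 26.7% as lower, so that the count of 6 of 7 stands on a high background. Tagln was at 88.7, 99.3 and 103.3 CPM at P1 and 2098, 2183 and 2018 CPM at P60 (log2 change 4.45 ± 0.12, edgeR adjusted p = 7.2e-11). Acta2 was at 151.7, 71.0 and 100.5 CPM at P1 and 1100, 1217 and 663.1 CPM at P60 (3.22 ± 0.27, adjusted p = 7.7e-07). Both genes were without overlap, and Tagln in P60 perineurial cells exceeded that of pericytes in the same library by 2.24, 1.70 and 1.03 times. Myl9 was at 478.9, 465.1 and 472.5 CPM at P1 and 941.3, 949.5 and 602.6 CPM at P60 (0.84 ± 0.16, adjusted p = 6.2e-04). Smtn was at 63.5, 64.5 and 63.9 CPM at P1 and 31.6, 33.5 and 21.5 CPM at P60 (-1.12 ± 0.17, adjusted p = 1.4e-04). Immune cells in the same libraries held 36.7, 55.8 and 66.7 CPM of Tagln and 46.2, 66.1 and 87.9 CPM of Acta2 at P60. Their means at P1 were lower, at 7.99 CPM of Tagln and 31.3 CPM of Acta2. Perineurial Tagln at P60 was 57.1, 39.1 and 30.3 times and Acta2 23.8, 18.4 and 7.55 times the immune level. Myh11, called higher as well (2.20 ± 0.41, adjusted p = 6.1e-04), reached 5.52, 6.21 and 8.20 CPM at P60, below the immune cells of each library. Mylk (2.40 ± 0.24, adjusted p = 2.6e-06) was at 21.4, 28.5 and 23.1 CPM at P60, above immune cells in 2 of 3 libraries. Actg2 did not pass (0.66 ± 0.42, adjusted p = 0.2), at 0.871 to 4.34 CPM at P1 and 3.40 to 5.54 CPM at P60. Cnn1, Des and Pln were too low to be tested, with 5, 4 and 1 UMIs at P1 and 45, 44 and 21 at P60.

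The perineurial level was uneven. At P60 the class held 2 clusters, 1923 cells led by Sfrp5, Msln and Cldn22 with a median of 3.85% mitochondrial counts, and 494 cells with Ptch1 and Slc6a13 among their leading genes and a median of 11.9%. Tagln was at 2376, 2463 and 2350 CPM in the larger cluster and 117.2, 171.1 and 153.9 CPM in the smaller, by library. Acta2 was at 1246, 1372 and 774.0 CPM in the larger and 56.9, 104.9 and 41.1 CPM in the smaller. Skeletal muscle markers summed to between 13.4 and 16.1 CPM in perineurial cells at P1 and between 209.2 and 235.2 CPM at P60, of which Tnnt3 gave 3556 UMIs and Acta1 6, while Ckm, Myod1, Myog and Pax7 were at 0. The 15 smooth muscle markers summed to between 224.3 and 234.5 CPM in perineurial cells at P1 and between 772.7 and 943.4 CPM at P60. The 8 pericyte markers summed to between 449 and 494.7 CPM at P1 and between 626.1 and 897.6 CPM at P60. The part of all these markers and of mitochondrial share in the perineurial values was not tested. Tagln in the smaller cluster was above every P1 library of the class (88.7 to 103.3 CPM), and its Acta2 overlapped with the P1 libraries (71.0 to 151.7 CPM). The contractile genes themselves did not enter the clustering, but genes that vary with them did, and these values carry no test.

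Endoneurial cells, the fibroblasts between the nerve fibres, held Mylk at 31.0, 28.8 and 27.6 CPM at P1 and 110.8, 128.1 and 163.5 CPM at P60 (log2 change 2.28 ± 0.15, edgeR adjusted p = 3.8e-08), without overlap and 13.4, 10.9 and 6.87 times the level in immune cells at P60. Myl9 fell from 300.1, 311.6 and 317.1 CPM to 184.6, 195.4 and 139.6 CPM (-0.75 ± 0.14, adjusted p = 7.4e-04), and Smtn fell from 124.2, 140.9 and 140.8 CPM to 87.0, 84.4 and 68.8 CPM (-0.67 ± 0.14, adjusted p = 0.0015). Acta2 (3.26 ± 0.25, adjusted p = 2.2e-07) and Tagln (2.64 ± 0.27, adjusted p = 3.3e-06) were called higher, but at P60 they were below the immune cells of every library, at 36.9, 43.8 and 43.8 CPM and at 24.6, 16.0 and 25.0 CPM. The other genes were too low to be tested. Myh11, Des, Actg2, Cnn1 and Pln had 8, 10, 17, 0 and 0 UMIs at P1 and 15, 16, 2, 3 and 6 at P60. All 5 genes tested in endoneurial cells were called, 3 higher and 2 lower, where 46.2% of 10741 genes were (23.8% higher and 22.5% lower).

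Epineurial cells, the loose outer fibroblasts, had 4 of 7 tested genes called, 2 higher and 2 lower, where 48.3% of 12329 genes were (25.1% higher and 23.3% lower). Myl9 fell from 237.0, 242.6 and 220.1 CPM to 89.6, 84.3 and 82.4 CPM (log2 change -1.48 ± 0.11, edgeR adjusted p = 1.8e-06), and Smtn from 27.6, 35.6 and 34.7 CPM to 16.1, 17.5 and 14.4 CPM (-1.06 ± 0.15, adjusted p = 1.8e-04). Both fell without overlap, and both stayed above the immune cells of each library. Myh11 (2.65 ± 0.48, adjusted p = 0.0011), at 6.83, 4.94 and 11.7 CPM at P60, was called higher and was below immune cells in 2 of 3 P60 libraries (1.05, 0.284 and 0.450 times their level). Tagln (0.62 ± 0.21, adjusted p = 0.032), at 22.4, 20.2 and 35.7 CPM at P60, was below immune cells in all 3, and its call was lost when any P1 library was left out (0.56 to 0.72, adjusted p = 0.063 to 0.13). Acta2 (0.18 ± 0.14, adjusted p = 0.33), Mylk (0.51 ± 0.26, adjusted p = 0.13) and Des (0.04 ± 0.17, adjusted p = 0.86) did not pass. Des, at 9.55 to 12.1 CPM at P60, was at 2.02 to 3.40 times the immune level in all 3 libraries. Actg2, Cnn1 and Pln were too low to be tested, with 25, 1 and 0 UMIs at P1 and 10, 19 and 19 at P60.

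For all fibroblasts together, 8 of the 10 genes were called, 7 higher and Smtn lower, where 59.2% of 14673 genes were called (30.8% higher and 28.5% lower). Tagln (4.80 ± 0.14), Acta2 (3.27 ± 0.26), Myh11 (2.82 ± 0.34), Des (0.83 ± 0.20) and Mylk (0.70 ± 0.14) were among the 7, and Myl9 (0.30 ± 0.16, edgeR adjusted p = 0.14) and Actg2 (0.23 ± 0.32, adjusted p = 0.56) did not pass. This sum, too, mixes changes within layers with the make-up of the class. Of its 5759 cells at P1, 1299 were fibroblasts of no subtype, of which 51.5% had over 10% mitochondrial counts. At P60 there were 0 such cells, and their part in the changes was not tested. Perineurial cells were 17.4%, 14.3% and 16.0% of fibroblasts in the P1 libraries and 25.6%, 34.0% and 32.0% in the P60 libraries, and Acta2 did not pass in epineurial cells, which were 55.0% to 62.7% of fibroblasts at P60. The change differed from that of mural cells for 6 genes, with 17.3% of 14183 genes called in that test. Tagln rose more in the sum of fibroblasts (difference, mural minus fibroblast, -3.48 ± 0.21 on the log2 scale, edgeR adjusted p = 3.9e-10), as did Acta2 (-1.92 ± 0.21, adjusted p = 1.3e-06). Smtn was higher at P60 in mural cells and lower in fibroblasts (3.14 ± 0.25, adjusted p = 1.3e-08). The fibroblast values of Cnn1 and Pln came from 8 and 1 UMIs at P1 and from 67 and 46 at P60.

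Within the smooth muscle cells of P60, Pln was found less often in cells with Actg2, a description over cells with no test. Of the 49 cells with an Actg2 UMI, 32.7% also held Pln, whereas 71.9% of the cells without Actg2 did. By library these shares were 60%, 57.1% and 24.3% with Actg2 and 85.6%, 71.3% and 67.1% without, from 5, 7 and 37 Actg2 cells. Cnn1 went with Actg2, found in 83.7% of the Actg2 cells and 36.8% of the others. The P60 class held 4 clusters, numbered 0 to 3 here, with 260, 157, 72 and 65 cells. Cluster 3, led by Cnn1 with Synpo2 and Itga8 among its leading genes, had 413.6 CPM of Actg2, 1318 CPM of Cnn1, 5432 CPM of Myh11 and 1053 CPM of Smtn, but 59.7 CPM of Pln. Cluster 0 had 14.5 CPM of Actg2, 214.1 of Cnn1, 1686 of Myh11, 194.8 of Smtn and 727.1 of Pln. Cluster 1 was set off from the other smooth muscle cells by immediate early genes such as Atf3, Klf2 and Egr2, and cluster 0 by lymphatic endothelial genes such as Ccl21a, Mmrn1 and Lyve1. P60 replicate 3 gave 55 of the 65 cells of cluster 3, 60 of the 72 of cluster 2 and 142 of the 157 of cluster 1, against 66 of the 260 of cluster 0. The median mitochondrial share was 24.7% in cluster 2 and 26.4% in cluster 3, against 6.23% in cluster 0. The cells of cluster 3 from P60 replicates 1 and 2, numbering 4 and 6, had 65.6 and 154.4 CPM of Pln, from 1 and 3 UMIs, and 1573 and 668.9 CPM of Cnn1. In the same libraries cluster 0 had 828.1 and 740.7 CPM of Pln. Cluster 2, at a median of 2008 UMIs per cell against 3085 in cluster 3, had 0 Actg2 UMIs and 474.4 CPM of Pln. Cluster 1, at 7.11% mitochondrial counts, had 904.2 CPM of Pln. The part of library, mitochondrial share and depth in these levels was not tested.

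Pericytes also split in 2 at each age. At P1, 280 cells led by Higd1b, Rgs5 and Ndufa4l2 held 555.0, 952.6 and 559.9 CPM of Acta2 and 103.4, 149.9 and 120.5 CPM of Tagln. The other 138 P1 pericytes, which differed from the first by genes such as Fst, Ccl2 and Il6, held 1822, 2457 and 2266 CPM of Acta2 and 716.3, 987.2 and 879.4 CPM of Tagln. The first differed from the second by genes such as Tpsb2, Cma1 and Cpa3, which mark mast cells. Every library had the higher level in the smaller cluster, at similar Des (356.0 and 426.9 CPM over the clusters). At P60, the clusters of 187 and 117 cells were closer in Acta2, at 2887 and 2995 CPM, and in Tagln, at 1087 and 1903 CPM, while Actg2 was at 0 UMIs in the larger and at 74.9 CPM in the smaller.

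**Figure D5:**
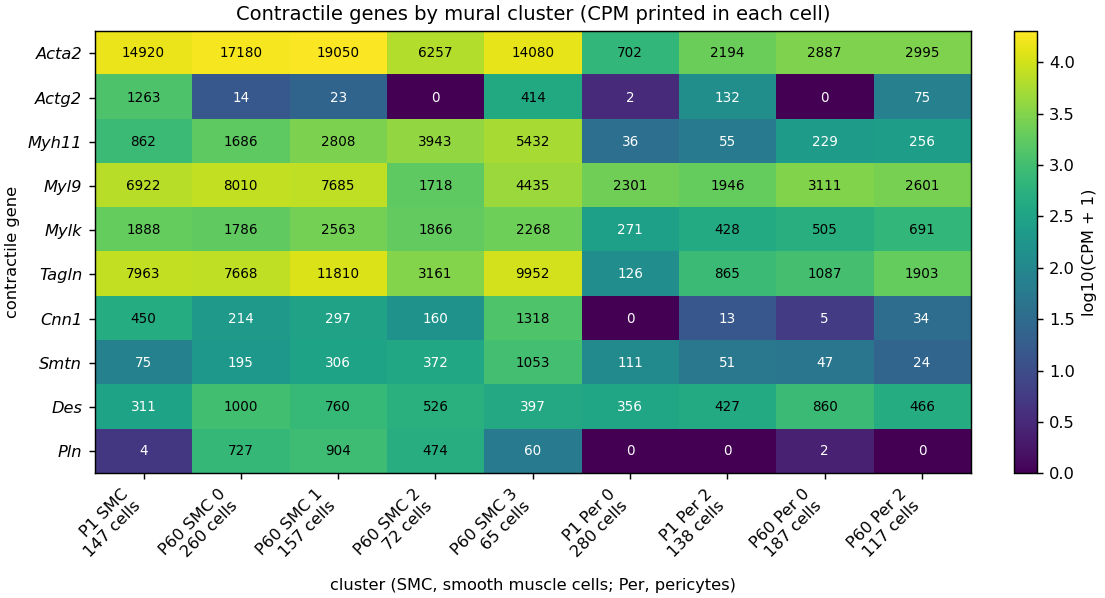
Level of each contractile gene (rows) in the clusters of smooth muscle cells (SMC) and pericytes (Per) at P1 and P60 (columns, with their cell numbers), with colour on a log10(CPM + 1) scale and the CPM over the cluster printed in each cell. Pln is at 59.7 CPM in P60 SMC cluster 3 and between 474.4 and 904.2 CPM in the other P60 SMC clusters, and Actg2 is at 413.6 CPM in cluster 3 and at most 23.4 CPM in the other 3.

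Endothelial cells held Acta2 and Tagln at P60 too. A cluster of 1035 endothelial cells led by Slco1a4, Cldn5 and Mfsd2a, genes of barrier endothelium, had 1201, 1697 and 1139 CPM of Acta2 by library. The other 829 P60 endothelial cells, led by Ccl21a, Aqp1 and Plvap, had 95.2, 87.8 and 90.6 CPM. Tagln was at 657.7, 827.1 and 601.1 CPM in the first and 564.2, 752.3 and 719.0 CPM in the second. The 7 mural markers summed to between 206.6 and 256.6 CPM in endothelial cells at P60, against 6945 to 9010 CPM in pericytes. The 15 smooth muscle markers summed to 233.8, 236 and 253 CPM in endothelial cells at P1 and to 1044, 1084 and 748.7 CPM at P60. At P60 they summed to between 7525 and 10160 CPM in smooth muscle cells and between 75.75 and 92.16 CPM in immune cells. The part of mural RNA in the endothelial values was not tested. In addition, 224 P60 cells carried endothelial and mural markers together, at a median of 7930 UMIs against 4592 for endothelial cells and 3115 for pericytes, and were kept out of both classes. They held 610.0, 642.5 and 671.4 CPM of Acta2 and 811.5, 775.7 and 1080 CPM of Tagln.

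The other genes of the contractile pathway, a list of 56 that shares no gene with the set but 4 (Lmod1, Ppp1r14a, Kcnmb1 and Myocd) with the markers that named smooth muscle cells, moved in smooth muscle cells with 24 called higher and 8 lower of 50 tested, where 17.3% of all genes tested were called higher and 15.2% lower. Calcium handling and channel genes had 7 of 9 higher and none lower, and contractile and cytoskeletal genes 11 of 16 higher and 2 lower. Kcnmb1, a subunit of the calcium-activated potassium channel, was at 10.3 ± 4.2 CPM at P1 and 90.3 ± 3.0 CPM at P60 (log2 change 3.27 ± 0.37, edgeR adjusted p = 2.4e-05). Synm, encoding synemin, which joins desmin filaments, rose from 37.5 ± 10.8 to 207.1 ± 106.4 CPM (2.70 ± 0.43, adjusted p = 3.2e-04). Synpo2, an actin-bundling protein, rose from 49.2 ± 7.3 to 273.8 ± 90.5 CPM (2.68 ± 0.32, adjusted p = 3.7e-05). The largest falls were those of Cnn2, a non-muscle calponin (-1.29 ± 0.17, adjusted p = 6.6e-05), the vasopressin receptor gene Avpr1a (-1.25 ± 0.34, adjusted p = 0.013) and Csrp2, a LIM-domain protein (-1.05 ± 0.15, adjusted p = 1.8e-04). The non-muscle counterparts of the contractile proteins had 0 of 8 higher and 4 lower. The median log2 change was 1.76 for the calcium group, 1.01 for the contractile group and -0.39 for the non-muscle group, against 0.00 over all genes tested.

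In pericytes 20 of 48 tested pathway genes were higher and 5 lower, where 14.1% of all genes were called higher and 11.8% lower, and the 25 calls became 16 with DESeq2 and 16 without P1 replicate 2. Lmod1, leiomodin, an actin-filament nucleator of smooth muscle, was at 16.8 ± 6.0 CPM at P1 and 207.9 ± 50.9 CPM at P60 (log2 change 3.57 ± 0.28, edgeR adjusted p = 2.0e-07), followed by Synpo2 (3.08 ± 0.29, adjusted p = 1.3e-06) and the myosin phosphatase subunit gene Ppp1r12b (2.98 ± 0.44, adjusted p = 1.1e-04). Csrp2 (-1.35 ± 0.20, adjusted p = 9.9e-05) and the cytoplasmic actin genes Actg1 (-1.18 ± 0.14, adjusted p = 1.4e-05) and Actb (-0.56 ± 0.12, adjusted p = 0.0028) fell most. Csrp2 thus fell in both mural classes, and Synpo2 rose in both.

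Over all mural cells, whose make-up changed with age, 29 of 53 pathway genes were higher and 6 lower, where 17.4% of all genes were called higher and 15.5% lower. Besides Synm (3.78 ± 0.53, edgeR adjusted p = 3.7e-04), the largest rises were those of the potassium channel genes Kcnmb1 (3.69 ± 0.38, adjusted p = 6.1e-05) and Kcnma1 (3.43 ± 0.52, adjusted p = 5.5e-04). The largest falls were in the non-muscle genes Myh10 (-1.21 ± 0.33, adjusted p = 0.016), Actg1 (-0.86 ± 0.12, adjusted p = 2.7e-04) and Cnn2 (-0.70 ± 0.14, adjusted p = 0.0025).

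In perineurial cells 27 of 46 tested pathway genes were higher and 9 lower, where 28.0% of all genes were called higher and 26.7% lower. In the contractile and cytoskeletal group 12 of 15 were higher. Lmod1 (6.0 ± 0.64, adjusted p = 5.3e-06) and Synpo2 (4.27 ± 0.66, adjusted p = 1.4e-04) rose from 1 and 2 UMIs at P1 to 10.3 and 5.66 CPM. The LIM protein gene Pdlim3 fell from 68.5 ± 7.1 to 1.71 ± 0.53 CPM (-5.21 ± 0.22, adjusted p = 1.9e-09), ahead of the receptor genes Agtr1a (-2.24 ± 0.19, adjusted p = 5.9e-07) and Ednrb (-2.21 ± 0.36, adjusted p = 2.2e-04).

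Endoneurial cells had 12 of 42 tested pathway genes higher and 14 lower, where 23.8% and 22.5% of all genes were called, so that the share called higher was near that of all genes. Epineurial cells had 15 of 47 higher and 21 lower, where 25.1% and 23.3% of all genes were called. Pdlim3 fell in endoneurial (-6.91 ± 0.52, edgeR adjusted p = 1.7e-07, with 1 UMI at P60) and in epineurial cells (-3.01 ± 0.26, adjusted p = 7.6e-06). In endoneurial cells, Adra1a, an adrenergic receptor gene, reached 5.32 ± 1.71 CPM from 7 UMIs at P1 (3.20 ± 0.66, adjusted p = 0.0013), Ppp1r12b rose by 1.52 ± 0.29 (adjusted p = 6.4e-04) and Pde5a, a cGMP phosphodiesterase gene, by 1.09 ± 0.33 (adjusted p = 0.015), while Tagln2 (-2.60 ± 0.24, adjusted p = 1.3e-06) and the guanylate cyclase gene Gucy1b3 (-2.35 ± 0.39, adjusted p = 2.5e-04) fell. In epineurial cells, Synm rose by 3.30 ± 0.22 (adjusted p = 1.2e-06), Casq2, a calcium-binding protein gene, by 2.12 ± 0.57 (adjusted p = 0.011) and the kinase gene Rock2 by 1.25 ± 0.15 (adjusted p = 7.3e-05), while the endothelin receptor gene Ednra (-2.43 ± 0.17, adjusted p = 1.3e-06) and Gucy1a3 (-2.39 ± 0.19, adjusted p = 4.0e-06) fell. Over all fibroblasts, where 30.8% of all genes were called higher and 28.5% lower, 27 of 51 were higher, led by Lmod1 (4.98 ± 0.49, adjusted p = 2.5e-05) and Synm (3.92 ± 0.22, adjusted p = 6.6e-07), and 11 were lower, led by Pdlim3 (-4.69 ± 0.18, adjusted p = 8.9e-08), Ednrb (-2.17 ± 0.18, adjusted p = 7.6e-06) and Ednra (-1.61 ± 0.12, adjusted p = 4.6e-06).

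Genes were ranked by likeness to the mean of the contractile genes across the 48 sums of a library and a class, which share libraries and depth. Genes of the set, the pathway list and the marker lists were left out of this ranking. The most alike of the other genes were Jph2 (Pearson r = 0.949 of log2(CPM + 1)), Rbm24 (0.938), AW011738 (0.928), Slc38a11 (0.921) and Gm43185 (0.918). Jph2, junctophilin, which ties the sarcoplasmic reticulum to the plasma membrane, was at 37.4 CPM in smooth muscle cells at P1 and 121.0 CPM at P60, and at 13.2 and 25.0 CPM in pericytes. Among the contractile genes, Myh11 (0.939) and Acta2 (0.919) were closest to the mean of the other 9, and Smtn (0.299) and Pln (0.608) farthest from it.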

How the data were processed

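Cells of sciatic nerves were profiled in 3 libraries at P1 and 3 at P60, each an independent suspension pooling several mice, so p-values measure the spread between these suspensions. The authors deposited raw UMI counts per gene and cell, made with Cell Ranger 2.0.2 per the submitters' processing notes. The study's methods name a human build and the notes a mouse one, and the gene identifiers are those of mouse. The library labelled P60 replicate 3 is numbered otherwise in the study's cell list, and the labels were followed.

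Libraries held 3467 to 4609 barcodes and 20203440 to 30334608 UMIs, with medians of 3627 to 6840 UMIs per cell. Cells with 500 to 5000 genes were kept (24337 of 24510). They were clustered per age with Seurat 5.3.0 (R 4.3.3) on 10 principal components, with the contractile genes left out, and clusters were named where 3 or more markers passed. The thresholds for naming were set after seeing the data. Fibroblasts of no subtype (1299, P1), unnamed cells (673, P1) and mixed cells (224, P60) stayed out of the finer classes. The fibroblasts of no subtype were counted among all fibroblasts, in the sums and in the per-cell means. Doublets were not removed, and the cells of highest Scrublet score were left out as an alternative.

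UMIs were summed per class and library. Levels are CPM of the class total, and since the kit counts transcript ends they are not divided by length, so that genes are not ranked against each other. Ages were compared with edgeR 4.0.16 (quasi-likelihood test, TMM scaling, filterByExpr, Benjamini-Hochberg adjustment over all genes tested), and age changes were compared between classes with an interaction term and the library as a block. The SE of a log2 change is its size divided by the square root of the F statistic of the test. It understates the error where 1 age holds few UMIs. Thinned per-cell counts and shares were compared with exact two-sided permutation tests. On data simulated for smooth muscle cells (4621 genes), 25.4% of 2-fold and 95.8% of 4-fold changes were recovered. Alternatives were DESeq2 1.42.0, library size alone, no filter, a replicate block, each library left out, other clusterings, cells under 10% mitochondrial counts and other thinning.

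By the rule for named genes, all 10 contractile genes are given in smooth muscle cells, pericytes and the fibroblast layers, with UMIs alone where too low to be tested. Of the pathway list, the 3 genes called higher and the 3 called lower with the largest log2 change per class are named. The 5 genes most like the set, among those outside the set, the pathway list and the marker lists, are named too. The members and lists were chosen with earlier results of these data known. Intervals and limits for a count of 0 cover counting error only. Some genes that the rule for named genes would give are not reported here.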

Additional observations from a re-analysis of the deposited data

Results flagged for a closer look

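The change with age differed between smooth muscle cells and pericytes for 7 of the 10 contractile genes, by edgeR's test of the interaction. The difference of log2 changes, smooth muscle cells minus pericytes, was -0.74 for Acta2, -3.53 for Actg2, -0.75 for Myh11, -0.46 for Mylk, -1.45 for Tagln, 3.54 for Smtn and 0.88 for Des. It differed between mural cells and all fibroblasts for 6 genes, with differences of -1.92 for Acta2, -3.30 for Actg2, 0.54 for Myl9, -3.48 for Tagln, -2.14 for Cnn1 and 3.14 for Smtn.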

How the results depend on the processing

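Of 308 values recomputed for 20 results, 299 stayed near the reported ones. Of 46 age changes called for single contractile genes, 42 kept their call under all alternatives and 0 reversed. Those that did not were Acta2 in smooth muscle cells, Cnn1 in mural cells, Myl9 in pericytes and Tagln in epineurial cells. Of 11 not called, 4 were called under an alternative.

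With DESeq2, 16 pathway genes were called in pericytes in place of 25, and 16 to 26 with each library left out (16 without P1 replicate 2). Of the contractile genes, 8 were called in endoneurial cells with DESeq2 and 8 without a filter on low counts, in place of 5, and 7 in epineurial cells without the filter, in place of 4. Without thinning, the gain in genes found per cell was 0.525 in smooth muscle cells, 0.776 in pericytes (0.971 at 1000 UMIs) and -0.192 in all fibroblasts, in place of 0.965, 1.15 and 0.0912, and the cause was not tested. Over all genes, DESeq2 called 1058 in pericytes against 1676, and 290 against 720 for the difference between smooth muscle cells and pericytes.

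Deviations of same-numbered P1 and P60 libraries correlated at -0.026 to 0.115. The labels name no batch, and whether same-numbered libraries share one was not tested. With the replicate block, 7 contractile genes were called in smooth muscle cells in place of 6, and 7 in pericytes, 10 in mural, 5 in endoneurial, 6 in perineurial, 4 in epineurial cells and 8 in all fibroblasts, as without it. In pericytes, Cnn1 and Pln could not be tested at this depth.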
